A study of Homo sapiens with 8 samples.

Results

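The transcriptional response to serum was described in U2OS cells that expressed GFP, by comparing 2 libraries taken after serum stimulation with 2 taken in normal growth. U2OS is an established human osteosarcoma line, and poly(A) RNA was sequenced on an Illumina HiSeq instrument. These 4 libraries are part of a set of 8, in which the other 4 come from U2OS cells overexpressing the actin mutant G13R, in the same 2 conditions. The labels do not say how long serum was applied, whether it was withdrawn beforehand, how GFP was introduced or whether the cells are 1 clone. All genes with at least 1 FPKM (fragments of a gene scaled to its length and to the library's size, as the authors deposited them) in at least 2 of the 8 libraries were tested, which were 12996 of the 22504 genes listed.

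Serum carries growth factors, hormones and lipids, many of which act on receptors at the cell surface. Within the classical response, ERK and actin-dependent signalling act through the ternary complex factors, SRF and its partner MRTF to switch on immediate-early genes such as FOS and EGR1, whose transcripts are short-lived. Serum also bears on slower programmes, among them sterol synthesis under SREBP, FOXO targets that growth factors usually repress, and ribosome production.

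Between 12065 and 12568 genes reached 1 FPKM in the 4 GFP libraries, and the summed FPKM lay between 512349 and 559496. Depth is unknown, because FPKM values do not carry the reads behind them. The serum pair spread more than the normal pair: 186 of the tested genes lay over 2-fold apart between the serum libraries, of which 123 were higher in replicate 2, against 87 between the normal libraries. On the first principal component of all 8 libraries, which held 53.9% of the variance, serum replicate 2 stood at 44.7 and serum replicate 1 at 26.0, while the normal libraries stood at -25.0 and -21.6. Separate cultures are not stated in the labels, so p-values here measure only how far these libraries spread, possibly for technical reasons. The osteoblast-lineage markers summed to between 612.7 and 932.1 FPKM with 6 of 10 reaching 1 FPKM, led by SPARC. The defining markers SP7, IBSP and BGLAP stayed below 1 FPKM in each GFP library, as did COL1A2. Epithelial markers, chiefly the keratins KRT8 and KRT18, summed to 691.5 and 786 FPKM in normal growth and to 895.8 and 1056 after serum. CDH1, also of this list, went the other way, with 4.47 and 2.08 FPKM in normal growth and 1.49 and 0.498 after serum. The part of these markers in the results was not tested. Leukocyte markers summed to at most 3.403 FPKM with CD3E listed at 0, and endothelial markers to at most 0.7558 FPKM with PECAM1 listed at 0.

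Serum raised 1941 genes (14.9% of those tested) and lowered 2044 (15.7%) at an adjusted p below 0.05 in limma, a linear model fitted to log2(FPKM + 1). Log2 fold changes below are serum minus normal on that scale with their standard error, from 2 libraries a group, and adjusted p are limma's with Benjamini-Hochberg adjustment over all tested genes. The rises were the larger: 523 genes (4.02%) rose at least 2-fold and 165 (1.27%) fell at least 2-fold. The groups' libraries did not overlap in 66.3% of all tested genes, and no called gene had overlapping libraries. Separate libraries in a called gene named below thus add nothing to its call. The total of 3985 calls became 2146 when GFP normal replicate 1 was left out. Leaving out GFP normal replicate 2 gave 2517 and leaving out GFP serum replicate 2 gave 2499, so 3 of the 4 libraries each moved it by over 1.5 times. Without GFP serum replicate 1 the genes that rose at least 2-fold numbered 791 and those that fell at least 2-fold 348, and without GFP serum replicate 2 the latter numbered 91.

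Taken singly, the serum libraries moved in the same direction but to different extents. Against the mean of the normal libraries on the log2(FPKM + 1) scale, 437 genes stood at least 2-fold higher in serum replicate 1 and 818 in serum replicate 2. The 349 genes common to both were 79.9% of the first set and 42.7% of the second. At least 2-fold lower stood 109 genes in replicate 1 and 371 in replicate 2, and the 84 common genes were 77.1% and 22.6% of these. Among the genes that rose, replicate 2 lay farther from normal growth than replicate 1 in 1541 (79.4%), with median differences of 0.64 in replicate 1 and 0.84 in replicate 2. Among those that fell it lay farther in 1493 (73.0%), with medians of -0.49 and -0.61. Replicate 2 also lay farther in 8297 of all 12996 tested genes, called or not.

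Library pairs that share no sample gave the same picture. The difference between serum and normal replicate 1 correlated with that between serum and normal replicate 2 across the 12996 genes (Pearson's r = 0.699, Spearman's rank correlation = 0.700), where genes are not independent replicates. Of 528 genes at least 2-fold higher in the first pair, 499 were above 0 in the second, with a median of 1.30. Of 157 genes at least 2-fold lower in the first pair, 139 were below 0 in the second, with a median of -0.93. In 265 genes the lower serum library was at least 2 times the higher normal one on the FPKM + 1 scale, and in 51 the higher serum library was at most 1/2 of the lower normal one.

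**Figure D1:**
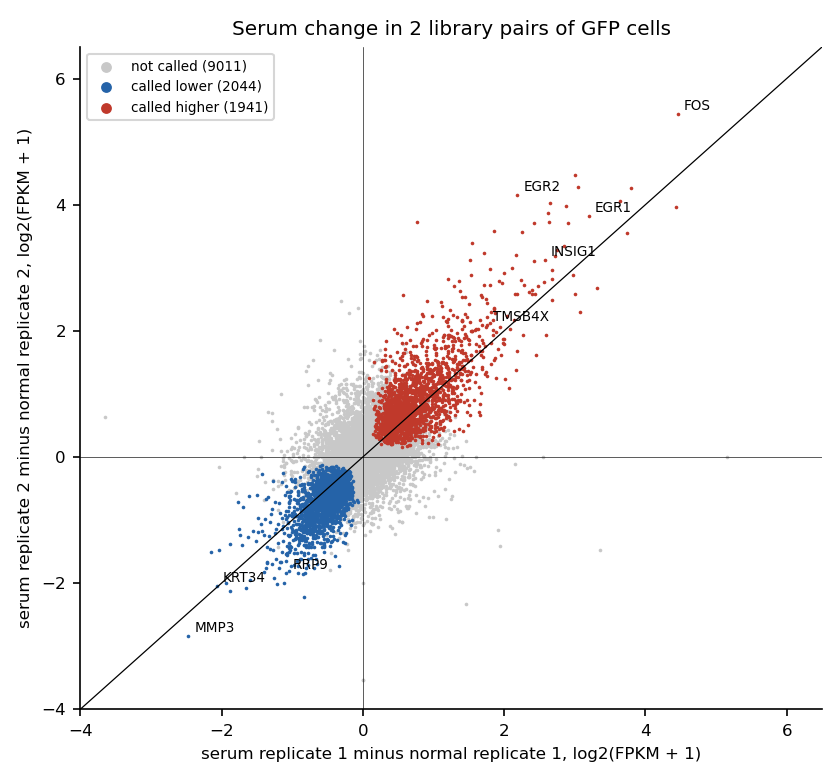
Each point is 1 of the 12996 tested genes, with the difference in log2(FPKM + 1) between serum and normal replicate 1 on the x axis and between serum and normal replicate 2 on the y axis; red genes were called higher (1941), blue genes called lower (2044), the diagonal marks equal change, and 5 genes lie outside the axes. The called genes lie in the upper right and lower left, and most of the strongly induced genes, such as FOS and EGR2, lie above the diagonal.

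Among called genes with a mean of at least 2 FPKM, unnamed transcripts left out, the 15 with the largest rises were FOS, LBH, NR4A2, IGFBP5, EGR1, NR4A1, FOSB, SMOC1, VWA5B2, IGFBP7, EGR2, TNFRSF11B, DUSP1, BMP4 and SDPR. Of these, 7 (FOS, FOSB, EGR1, EGR2, NR4A1, NR4A2 and DUSP1) are textbook immediate-early genes, and several others encode secreted proteins. LBH, a transcriptional regulator known as a Wnt target (chromosome 2, 30454397 to 30546596 in hg19), stood at 1.99 and 3.06 FPKM in normal growth and 36.3 and 66.9 after serum (log2 fold change 3.85 ± 0.25, adjusted p = 2.52e-05). IGFBP5, a secreted binding protein of insulin-like growth factors, stood at 1.42 and 1.26 FPKM in normal growth and 19.01 and 42.9 after serum (log2 fold change 3.66 ± 0.35, adjusted p = 1.07e-04). Its relative IGFBP7 had 12.8 and 10.6 FPKM in normal growth and 84.3 and 152 after serum (log2 fold change 3.18 ± 0.22, adjusted p = 2.74e-05). In each of these genes both serum libraries lay well above both normal ones, and serum replicate 2 was the higher of the pair.

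SMOC1, an extracellular modulator of BMP signalling, was near 1 FPKM in normal growth, with 0.934 and 1.001 FPKM in normal growth and 13.5 and 25.1 after serum (log2 fold change 3.31 ± 0.25, adjusted p = 3.74e-05). BMP4, the BMP ligand itself, had 11.3 and 14.3 FPKM in normal growth and 81.2 and 149 after serum (log2 fold change 3.01 ± 0.24, adjusted p = 5.16e-05). In 2 of the 15 genes the order of the serum libraries was the other one. TNFRSF11B, which encodes the decoy receptor osteoprotegerin, stood at 11.3 and 7.38 FPKM in normal growth and 87.8 and 83.8 after serum (log2 fold change 3.10 ± 0.21, adjusted p = 2.68e-05). SDPR, a coat protein of caveolae, stood at 0.491 and 0.868 FPKM in normal growth and 13.8 and 10.9 after serum (log2 fold change 2.99 ± 0.21, adjusted p = 2.74e-05). In these 2 genes replicate 1 was slightly the higher.

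**Figure D2:**
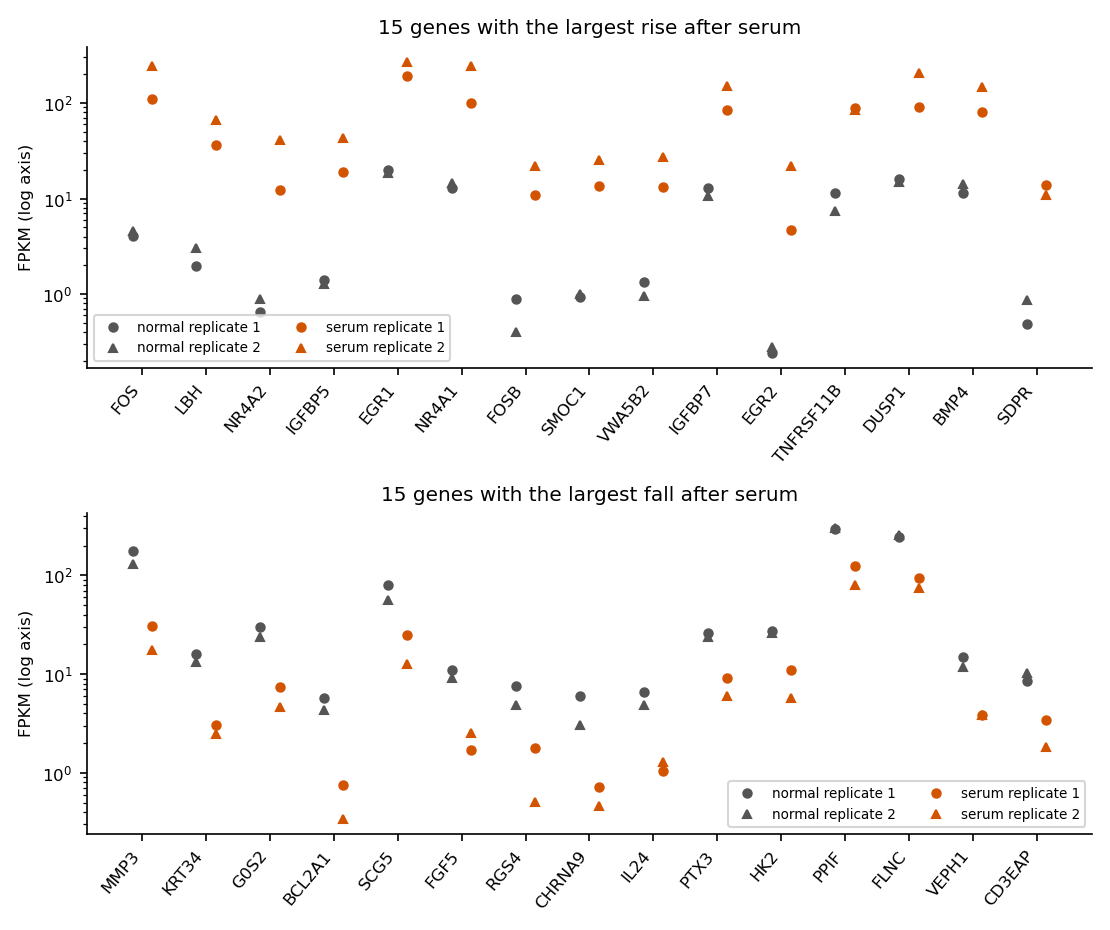
FPKM on a log axis in each GFP library for the 15 leading genes that rose (upper panel) and the 15 that fell (lower panel). Grey marks are normal growth, orange marks serum, circles replicate 1 and triangles replicate 2. Serum and normal marks do not overlap in any of the 30 genes, which the choice of these genes required. Replicate 2 lies farther from normal growth in most of them.

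Of 33 immediate-early transcription factors listed 30 were tested, of which 18 rose (60%) and 1 fell (3.33%), against 14.9% and 15.7% of all tested genes. Their median log2 fold change was 1.18 against 0.01 over all tested genes. The median was 1.02 in serum replicate 1 and 1.42 in serum replicate 2. FOS, the AP-1 subunit (chromosome 14, 75745477 to 75748933 in hg19), had 4.04 and 4.61 FPKM in normal growth and 109.8 and 243 after serum (log2 fold change 4.95 ± 0.30, adjusted p = 2.25e-05). FOSB, a related subunit, had 0.888 and 0.404 FPKM in normal growth and 10.8 and 21.97 after serum (log2 fold change 3.34 ± 0.32, adjusted p = 1.20e-04). Both genes were higher in serum replicate 2 than in replicate 1, and their normal libraries were low. JUNB and JUN, their dimer partners, rose by 2.37 ± 0.23 and 1.61 ± 0.13 on the log2 scale (adjusted p = 1.28e-04 and 4.68e-05). FOSL1, a further AP-1 subunit, went the other way, with 108 and 119 FPKM in normal growth and 82.8 and 67.4 after serum (log2 fold change -0.59 ± 0.12, adjusted p = 0.00431), and its serum libraries lay below both normal ones.

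The zinc finger factor EGR1 (chromosome 5, 137801179 to 137805004 in hg19) had 19.99 and 18.3 FPKM in normal growth and 191 and 272 after serum (log2 fold change 3.51 ± 0.16, adjusted p = 7.21e-06), and its serum libraries differed by less than those of FOS. EGR2 had 0.241 and 0.2803 FPKM in normal growth and 4.64 and 21.8 after serum (log2 fold change 3.17 ± 0.49, adjusted p = 0.00133), so its serum libraries lay over 2-fold apart, and the log2 fold change was 2.16 without serum replicate 2 and 4.18 without serum replicate 1. EGR3 was below the filter and stayed under 1 FPKM in each library. The orphan nuclear receptors behaved unequally. NR4A1 had 12.99 and 14.5 FPKM in normal growth and 101 and 245 after serum (log2 fold change 3.43 ± 0.32, adjusted p = 1.09e-04) and NR4A2 had 0.652 and 0.879 FPKM in normal growth and 12.2 and 40.6 after serum (log2 fold change 3.74 ± 0.43, adjusted p = 3.10e-04). NR4A3 had 1.03 and 0.738 FPKM in normal growth and 0.659 and 1.9001 after serum without being called (log2 fold change 0.22 ± 0.27, adjusted p = 0.566), and its groups overlapped.

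Of the other factors, ATF3, a stress-responsive member of the ATF family, had 23.1 and 17.9 FPKM in normal growth and 68.7 and 138 after serum (log2 fold change 2.21 ± 0.26, adjusted p = 3.73e-04). IER3, a regulator of survival signalling, had 34.2 and 31.6 FPKM in normal growth and 111 and 193 after serum (log2 fold change 2.12 ± 0.20, adjusted p = 1.14e-04). BHLHE40, a repressor tied to the circadian clock, had 20.96 and 16.9 FPKM in normal growth and 51.98 and 84.1 after serum (log2 fold change 1.76 ± 0.19, adjusted p = 2.26e-04). In all 3 genes serum replicate 2 was the higher library. MYC had 109.95 and 98.9 FPKM in normal growth and 95.7 and 71.9 after serum (log2 fold change -0.33 ± 0.12, adjusted p = 0.0718). SRF had 25.4 and 25.9 FPKM in normal growth and 20.3 and 23.3 after serum (log2 fold change -0.23 ± 0.11, adjusted p = 0.14). Neither was called. In both every serum library lay below every normal one, but the groups' libraries did not overlap in 66.3% of all tested genes.

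The EGR1 promoter is shown because this gene had the smallest adjusted p of the immediate-early list and because its promoter holds the recognition sequence of SRF, the CArG box. The window runs from 250 bases before to 50 bases after the start, from RefSeq on GRCh38.p14 (chr5:138465229-138465528, plus strand), 5′ to 3′, with the CArG boxes in capitals.
EGR1: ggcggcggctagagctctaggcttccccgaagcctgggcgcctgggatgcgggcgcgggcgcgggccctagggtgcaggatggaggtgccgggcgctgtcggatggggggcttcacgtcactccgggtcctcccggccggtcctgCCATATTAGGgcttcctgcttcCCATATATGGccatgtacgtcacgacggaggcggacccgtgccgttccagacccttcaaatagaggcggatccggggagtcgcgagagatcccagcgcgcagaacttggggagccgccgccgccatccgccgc
The 2 CArG boxes begin 105 and 83 bases before the start. Searched on both strands, a CArG box was found in 1.29% of the 27305 promoters of the table. Only 23 of the 30 immediate-early factors (76.7%) matched a promoter, which is too few for a share over the list to be given. Of the matched factors only EGR1 and SRF held an exact CArG box in this window, so EGR1 does not stand for the list. Sequence farther from the start and inexact boxes were not searched, so a factor without a match may still have a box. A match describes the letters and is not evidence of binding in these cells.

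Inhibitors that feed back on ERK signalling moved less uniformly. Of 17 tested 9 rose (52.9%) and 1 fell (5.88%), against 14.9% and 15.7% of all tested genes, with a median of 0.33. DUSP1, a phosphatase of MAP kinases, had 15.9 and 14.997 FPKM in normal growth and 90.2 and 208 after serum (log2 fold change 3.07 ± 0.29, adjusted p = 1.03e-04). Its relatives DUSP2 and DUSP5 rose by 2.22 ± 0.23 and 1.53 ± 0.11 on the log2 scale (adjusted p = 1.94e-04 and 2.92e-05), and DUSP7 fell (log2 fold change -0.80 ± 0.16, adjusted p = 0.00517). PHLDA1, another gene of this list, had 2.01 and 1.65 FPKM in normal growth and 9.51 and 16.5 after serum (log2 fold change 2.27 ± 0.23, adjusted p = 1.54e-04). DUSP6 and SPRY4 stayed below the filter.

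Of 10 regulators of mRNA decay 7 rose (70%) and 1 fell (10%), against 14.9% and 15.7% of all tested genes, with a median of 1.27. This list had 7 genes higher with any 1 library left out, and 0 lower. ZFP36, which binds AU-rich elements and destabilises short-lived messages, had 2.93 and 3.42 FPKM in normal growth and 16.8 and 25.4 after serum (log2 fold change 2.38 ± 0.20, adjusted p = 7.39e-05). ZFP36L1, its relative, stood much higher, at 82.3 and 70.4 FPKM in normal growth and 191 and 223 after serum (log2 fold change 1.43 ± 0.11, adjusted p = 3.57e-05). The antiproliferative genes BTG2 and TOB1 rose by 1.68 ± 0.27 and 1.55 ± 0.22 on the log2 scale (adjusted p = 0.00162 and 7.63e-04).

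Of 27 genes listed for sterol synthesis and uptake 24 were in the table and 23 were tested. Of these 21 rose (91.3%, against 14.9% of all tested genes) and 0 fell, with a median of 1.30. The same count of 21 was found with any 1 library left out, and the median was 1.20 in serum replicate 1 and 1.42 in serum replicate 2. INSIG1, which holds SREBP in the endoplasmic reticulum when sterols are plentiful (chromosome 7, 155089486 to 155101945 in hg19), had 2.52 and 2.68 FPKM in normal growth and 19.97 and 31.1 after serum (log2 fold change 2.85 ± 0.19, adjusted p = 2.52e-05). HMGCS1, an early enzyme of the pathway, rose by less (log2 fold change 0.82 ± 0.10, adjusted p = 3.72e-04). All serum libraries of these genes lay above all normal ones, as in every gene called higher.

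The later enzymes MSMO1 and HSD17B7 rose by 1.90 ± 0.13 and 1.78 ± 0.20 on the log2 scale (adjusted p = 2.74e-05 and 2.54e-04). STARD4, a sterol carrier, rose likewise (log2 fold change 1.81 ± 0.10, adjusted p = 2.16e-05). SREBF2, which encodes the factor that drives the pathway, had 31.3 and 32.1 FPKM in normal growth and 68.7 and 86.7 after serum (log2 fold change 1.26 ± 0.13, adjusted p = 1.74e-04). SREBF1, which favours fatty acid synthesis, had 42.7 and 44.8 FPKM in normal growth and 64.5 and 88.2 after serum (log2 fold change 0.77 ± 0.14, adjusted p = 0.00249). Among 16 genes of fatty acid synthesis and desaturation 8 rose (50%) and 1 fell (6.25%), with a median of 0.34. FADS2, a desaturase of polyunsaturated fatty acids, had 24.6 and 31.1 FPKM in normal growth and 133 and 200.2 after serum (log2 fold change 2.52 ± 0.20, adjusted p = 4.68e-05). SCD, which introduces the first double bond, had 49.4 and 48.9 FPKM in normal growth and 113 and 133 after serum (log2 fold change 1.30 ± 0.10, adjusted p = 5.01e-05). Of 7 targets of LXR, which promotes sterol efflux, 1 was called higher, and this call was lost without GFP normal replicate 2 or GFP serum replicate 2. That 1 of 7 was 14.3%, near the 14.9% of all tested genes that rose. ABCA1 stayed under 1 FPKM in each library.

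The INSIG1 promoter is shown as that of the most strongly raised sterol gene (RefSeq, GRCh38.p14, chr7:155297628-155297927, plus strand, 5′ to 3′), with an E-box (CACGTG) and a TATA box (TATAAA) in capitals.
INSIG1: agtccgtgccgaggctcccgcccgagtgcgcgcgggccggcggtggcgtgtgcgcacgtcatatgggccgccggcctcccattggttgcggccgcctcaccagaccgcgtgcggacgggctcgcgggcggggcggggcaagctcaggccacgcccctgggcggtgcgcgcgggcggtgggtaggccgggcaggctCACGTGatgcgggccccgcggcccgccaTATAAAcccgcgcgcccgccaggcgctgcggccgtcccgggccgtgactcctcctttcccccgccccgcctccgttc
The E-box begins 55 bases and the TATA box 27 bases before the start, and no sterol element core (TCACNCCAC) was found in this window. On both strands, an E-box was found in 7.44% of the 27305 promoters, a TATA box in 11.95% and a sterol element core in 1.15%. Only 17 of the 23 sterol genes (73.9%) matched a promoter, too few for a share over the list.

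**Figure D3:**
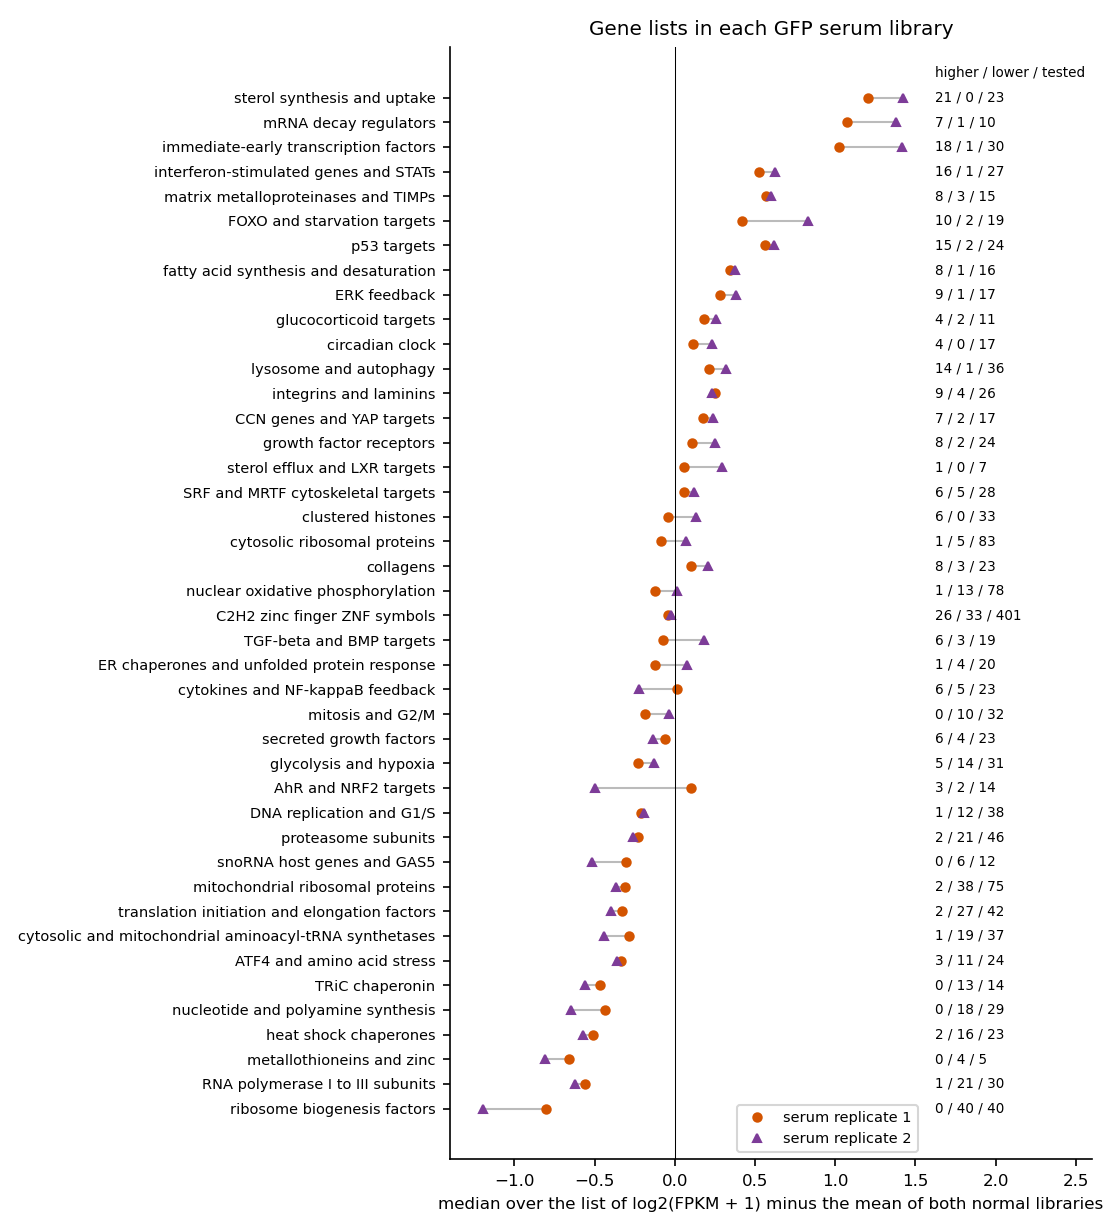
Median difference in log2(FPKM + 1) from the mean of both normal libraries for 42 gene lists, in serum replicate 1 (orange circles) and serum replicate 2 (purple triangles), ordered by the median log2 fold change; the figures at the right give members called higher, called lower and tested. Sterol synthesis stands at the top with 21 of 23 called higher and ribosome biogenesis at the bottom with 40 of 40 called lower, against medians over all genes of -0.01 and 0.02.

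Of 23 secreted growth factors 6 rose (26.1%) and 4 fell (17.4%), with a median of -0.15. Over all tested genes 14.9% rose and 15.7% fell, so the share that fell was near that of all genes. Besides BMP4, PDGFB, a ligand of the PDGF receptors, had 0.113 and 0.379 FPKM in normal growth and 2.33 and 4.54 after serum (log2 fold change 1.79 ± 0.27, adjusted p = 0.00117). HBEGF, a ligand of the EGF receptor, had 22.01 and 19.3 FPKM in normal growth and 12.6 and 11.96 after serum (log2 fold change -0.71 ± 0.12, adjusted p = 0.00172). FGF5, a fibroblast growth factor, had 10.9 and 9.13 FPKM in normal growth and 1.69 and 2.56 after serum (log2 fold change -1.83 ± 0.33, adjusted p = 0.0028), so in these 2 genes the serum libraries lay below the normal ones. The 4 falls were 2 when GFP normal replicate 1, GFP normal replicate 2 or GFP serum replicate 2 was left out. AREG, a further EGF receptor ligand, had 9.203 and 10.7 FPKM in normal growth and 10.9 and 10.8 after serum (log2 fold change 0.12 ± 0.15, adjusted p = 0.574) and was not called.

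Of 24 growth factor receptors 8 rose (33.3%) and 2 fell (8.33%), against 14.9% and 15.7% of all tested genes, and 4 rose with GFP normal replicate 1 or GFP serum replicate 2 left out, while 5 fell without GFP serum replicate 1. F2R, the thrombin receptor, had 7.17 and 8.77 FPKM in normal growth and 28.9 and 46.5 after serum (log2 fold change 2.08 ± 0.20, adjusted p = 1.19e-04). ERBB2, of the EGF receptor family, had 6.07 and 7.15 FPKM in normal growth and 14.6 and 14.6 after serum (log2 fold change 1.04 ± 0.16, adjusted p = 0.00142). MET, the receptor of hepatocyte growth factor, fell, with 27.1 and 28.97 FPKM in normal growth and 20.2 and 14.7 after serum (log2 fold change -0.67 ± 0.14, adjusted p = 0.00545). Of 23 genes of cytokines and NF-kappaB feedback 6 rose (26.1%) and 5 fell (21.7%). SOCS3, an inhibitor of cytokine signalling, had 2.35 and 2.98 FPKM in normal growth and 10.3 and 17.5 after serum (log2 fold change 1.99 ± 0.24, adjusted p = 3.65e-04). PTX3, a secreted pattern recognition protein, had 25.8 and 23.7 FPKM in normal growth and 9.13 and 5.95 after serum (log2 fold change -1.62 ± 0.19, adjusted p = 3.44e-04). The 5 falls of the cytokine list became 1 when GFP normal replicate 1 was left out, 3 when GFP normal replicate 2 was and 2 when GFP serum replicate 2 was.

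Targets of the coactivators YAP and MRTF were described as 2 lists. Of 17 CCN genes and YAP targets 7 rose and 2 fell (1 without GFP serum replicate 2), with a median of 0.22, and 4 rose with GFP normal replicate 1 or GFP serum replicate 2 left out. CYR61, a secreted matricellular protein, had 162 and 149.9 FPKM in normal growth and 471 and 599 after serum (log2 fold change 1.76 ± 0.11, adjusted p = 2.52e-05). ANKRD1, a nuclear and sarcomeric protein, had 132 and 112 FPKM in normal growth and 207 and 231 after serum (log2 fold change 0.84 ± 0.10, adjusted p = 3.14e-04). Of 28 cytoskeletal targets of SRF and MRTF, 6 rose (21.4%) and 5 fell (17.9%), with a median of 0.12. These shares lay near the 14.9% and 15.7% of all tested genes. CNN2, a calponin, had 75.2 and 75.6 FPKM in normal growth and 106 and 126 after serum (log2 fold change 0.61 ± 0.11, adjusted p = 0.00268). TAGLN, its relative transgelin, had 28.4 and 30.8 FPKM in normal growth and 19.1 and 20.2 after serum (log2 fold change -0.56 ± 0.11, adjusted p = 0.00477). VCL, the focal adhesion protein vinculin, was called higher (log2 fold change 0.48 ± 0.11, adjusted p = 0.00763), with an adjusted p of 0.0684 without GFP normal replicate 1. ACTB, the cytoplasmic beta-actin, had 2602 and 2778 FPKM in normal growth and 2543 and 2615 after serum without being called (log2 fold change -0.06 ± 0.08, adjusted p = 0.593). The 6 rises of the cytoskeletal list became 3 when GFP normal replicate 1 or GFP serum replicate 2 was left out and 11 when GFP serum replicate 1 was. Leaving out GFP normal replicate 2 gave 4 rises and 2 falls. The count of rises was 9 under quantile normalization.

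The shares of matrix genes that fell lay near the 15.7% of all tested genes, where 14.9% rose. Of 15 matrix metalloproteinases and their TIMP inhibitors 8 rose (53.3%) and 3 fell (20%), with a median of 0.58, and 5 rose without GFP normal replicate 1 or 2. MMP14, the membrane-bound collagenase, had 16.7 and 17.9 FPKM in normal growth and 38.1 and 40.7 after serum (log2 fold change 1.14 ± 0.11, adjusted p = 1.07e-04). TIMP3 had 7.11 and 7.67 FPKM in normal growth and 16.4 and 19.8 after serum (log2 fold change 1.18 ± 0.14, adjusted p = 3.90e-04). MMP3, the stromelysin (chromosome 11, 102706532 to 102714534 in hg19), had the largest fall among the 15 leading genes, with 175 and 132 FPKM in normal growth and 30.5 and 17.5 after serum (log2 fold change -2.66 ± 0.21, adjusted p = 4.62e-05). Of 26 integrins and laminins 9 rose (34.6%) and 4 fell (15.4%), with 2 falls without GFP normal replicate 1. ITGB8, an integrin subunit known to activate latent TGF-beta, had 0.926 and 2.302 FPKM in normal growth and 14.4 and 18.8 after serum (log2 fold change 2.79 ± 0.24, adjusted p = 7.88e-05). ITGA5, of the fibronectin receptor, had 51.2 and 48.2 FPKM in normal growth and 29.5 and 26.4 after serum (log2 fold change -0.81 ± 0.10, adjusted p = 3.89e-04). Of 23 collagens 8 rose (34.8%) and 3 fell (13.04%), with COL6A1 (log2 fold change 0.90 ± 0.12, adjusted p = 6.63e-04) and COL6A3 (log2 fold change -0.88 ± 0.10, adjusted p = 2.22e-04), which encode chains of the same collagen, in opposite directions. The collagen rises were 4 without GFP normal replicate 1 or GFP serum replicate 2, and 5 without GFP normal replicate 2.

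FOXO factors, which drive arrest and starvation genes, are usually held back by growth factor signalling. Over all tested genes 14.9% rose and 15.7% fell. Of 19 FOXO and starvation targets 10 rose (52.6%) and 2 fell (10.5%), with a median of 0.58, which was 0.42 in serum replicate 1 and 0.83 in serum replicate 2. With GFP normal replicate 1 left out 0 of them fell. FBXO32, a muscle-atrophy ubiquitin ligase, had 5.22 and 5.83 FPKM in normal growth and 26.5 and 29.8 after serum (log2 fold change 2.16 ± 0.12, adjusted p = 2.16e-05). SESN3, a sestrin, had 3.55 and 3.44 FPKM in normal growth and 11.1 and 24.7 after serum (log2 fold change 1.97 ± 0.32, adjusted p = 0.00164), and its serum libraries lay over 2-fold apart while those of FBXO32 were close. CCNG2, an atypical cyclin of arrested cells, had 9.13 and 9.88 FPKM in normal growth and 26.96 and 40.3 after serum (log2 fold change 1.69 ± 0.18, adjusted p = 1.78e-04). TXNIP, an inhibitor of glucose uptake, was called lower (log2 fold change -0.73 ± 0.15, adjusted p = 0.00611), with an adjusted p of 0.0569 without GFP normal replicate 1. Of 24 p53 targets 15 rose and 2 fell, with a median of 0.54, and 0 fell without GFP normal replicate 1 and 1 without GFP normal replicate 2. The FOXO and p53 lists share members, among them GADD45A, which fell, and TP53INP1, which rose. TP53I3, a quinone reductase, had 27.04 and 27.2 FPKM in normal growth and 56.9 and 79.7 after serum (log2 fold change 1.28 ± 0.14, adjusted p = 2.37e-04). CDKN1A, the inhibitor p21 of cyclin-dependent kinases, had 107 and 113 FPKM in normal growth and 165 and 201 after serum (log2 fold change 0.72 ± 0.10, adjusted p = 7.97e-04).

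Of 27 interferon-stimulated genes and STATs 16 rose (59.3%) and 1 fell (3.70%), against 14.9% and 15.7% of all tested genes, with a median of 0.64. This count rested on the libraries used: 8 rose without GFP normal replicate 1 or 2, and 6 without GFP serum replicate 2. IFIT1, an RNA-binding antiviral effector, had 0.881 and 0.639 FPKM in normal growth and 3.603 and 9.78 after serum (log2 fold change 2.005 ± 0.35, adjusted p = 0.00246), a low-expressed gene in which serum replicate 2 stood far above replicate 1. STAT2, a factor of the interferon response, had 12.2 and 13.01 FPKM in normal growth and 28.996 and 38.2 after serum (log2 fold change 1.33 ± 0.16, adjusted p = 4.37e-04). TRIM25, a ubiquitin ligase, fell (log2 fold change -0.77 ± 0.12, adjusted p = 0.00153). Of 36 lysosome and autophagy genes 14 rose and 1 fell, with a median of 0.24, and 7 rose without GFP normal replicate 1 and 9 without GFP normal replicate 2 or GFP serum replicate 2, while 4 fell without GFP serum replicate 1. CTSB, the protease cathepsin B, had 182 and 190.4 FPKM in normal growth and 319 and 333 after serum (log2 fold change 0.81 ± 0.08, adjusted p = 1.54e-04). NPC2, which carries cholesterol out of the lysosome, had 87.8 and 100.1 FPKM in normal growth and 159 and 219 after serum (log2 fold change 0.99 ± 0.13, adjusted p = 6.81e-04).

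Among 17 clock genes 4 rose (23.5%, against 14.9% of all tested genes) and 0 fell. PER1, a period gene known to respond to serum, had 16.2 and 16.3 FPKM in normal growth and 27.97 and 38.9 after serum (log2 fold change 0.97 ± 0.18, adjusted p = 0.00311). NPAS2, a partner of the clock activator, had 8.39 and 7.95 FPKM in normal growth and 20.6 and 21.01 after serum (log2 fold change 1.25 ± 0.13, adjusted p = 1.67e-04). Both were higher in either serum library than in the normal ones. PER2 had 3.83 and 4.52 FPKM in normal growth and 3.22 and 3.98 after serum and NR1D1 had 36.7 and 29.02 FPKM in normal growth and 33.8 and 30.02 after serum, and neither was called (log2 fold change -0.17 ± 0.18, adjusted p = 0.513; log2 fold change -0.03 ± 0.12, adjusted p = 0.855), with serum and normal libraries overlapping in both. Of 11 glucocorticoid targets 4 rose (36.4%, against 14.9% of all tested genes) and 2 fell (18.2%, against 15.7% of all tested genes). FKBP5, a chaperone of steroid receptors, was at 14.5 and 14.7 FPKM in normal growth and 8.92 and 7.49 after serum (log2 fold change -0.77 ± 0.13, adjusted p = 0.00215).

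By the same choice, the 15 genes with the largest falls were MMP3, KRT34, G0S2, BCL2A1, SCG5, FGF5, RGS4, CHRNA9, IL24, PTX3, HK2, PPIF, FLNC, VEPH1 and CD3EAP, unnamed transcripts again left out. KRT34, a hair keratin, had 15.99 and 13.3 FPKM in normal growth and 3.04 and 2.45 after serum (log2 fold change -2.06 ± 0.18, adjusted p = 7.73e-05). G0S2, an inhibitor of triglyceride lipase, had 29.9 and 23.6 FPKM in normal growth and 7.39 and 4.67 after serum (log2 fold change -2.001 ± 0.19, adjusted p = 1.07e-04). SCG5, a neuroendocrine chaperone, had 80.2 and 56.7 FPKM in normal growth and 24.8 and 12.6 after serum (log2 fold change -1.87 ± 0.25, adjusted p = 6.27e-04). In each of these the higher serum library lay well below the lower normal one.

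FLNC, an actin-crosslinking filamin (chromosome 7, 128470431 to 128499328 in hg19), had 247 and 259 FPKM in normal growth and 94.7 and 75.2 after serum (log2 fold change -1.57 ± 0.11, adjusted p = 2.84e-05). PPIF, the mitochondrial cyclophilin, had 297 and 304 FPKM in normal growth and 124 and 79.3 after serum (log2 fold change -1.59 ± 0.16, adjusted p = 1.51e-04). Both lay between 247 and 304 FPKM in normal growth and at less than 0.5 of that after serum. HK2, a hexokinase, had 27.1 and 26.1 FPKM in normal growth and 11.1 and 5.73 after serum (log2 fold change -1.61 ± 0.22, adjusted p = 6.58e-04). BCL2A1, an inhibitor of apoptosis, was low in both groups, with 5.76 and 4.33 FPKM in normal growth and 0.758 and 0.339 after serum (log2 fold change -1.97 ± 0.21, adjusted p = 2.27e-04). Replicate 2 was the lower of the serum libraries in these 4 genes.

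All 40 tested ribosome biogenesis factors fell, 16 of them at least 2-fold, where 15.7% of all tested genes fell and 1.27% did so at least 2-fold. Their log2 fold changes ran from -1.47 to -0.43 with a median of -0.96, which was -0.80 in serum replicate 1 and -1.19 in serum replicate 2. Between 37 and 40 fell with any 1 library left out. RRP9, a protein of the snoRNP that processes ribosomal RNA (chromosome 3, 51967446 to 51975957 in hg19), had 72.2 and 78.7 FPKM in normal growth and 33.5 and 21.2 after serum (log2 fold change -1.47 ± 0.17, adjusted p = 2.92e-04). PNO1, an assembly factor of the small subunit, had 60.7 and 57.2 FPKM in normal growth and 25.3 and 17.9 after serum (log2 fold change -1.42 ± 0.14, adjusted p = 1.31e-04). RRP12, an export factor, had 43.8 and 48.95 FPKM in normal growth and 22.7 and 12.97 after serum (log2 fold change -1.38 ± 0.20, adjusted p = 8.90e-04). In all 3 genes both serum libraries lay below both normal ones, as in every gene called lower, with replicate 2 the lowest.

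The nucleolar proteins fell by less but from higher levels. NPM1, nucleophosmin, had 3375 and 3519 FPKM in normal growth and 2079 and 2432 after serum (log2 fold change -0.62 ± 0.08, adjusted p = 5.35e-04). NCL, nucleolin, had 696 and 689.9 FPKM in normal growth and 415 and 358 after serum (log2 fold change -0.84 ± 0.08, adjusted p = 1.03e-04). NPM1 fell by 1192 FPKM between the group means, the largest loss among called genes with unnamed transcripts left out. Of the 12 host genes of snoRNAs tested, 6 fell (50%, against 15.7% of all tested genes) and 0 rose. SNHG1, which carries several snoRNAs in its introns, was at 208 and 218 FPKM in normal growth and 115 and 97.5 after serum (adjusted p = 1.02e-04).

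The RRP9 and PNO1 promoters are shown because both genes fell by over 1 on the log2 scale and hold the E-box, the palindrome recognised by MYC and related factors. Both windows come from RefSeq on GRCh38.p14, 5′ to 3′ on the gene's strand, with the E-box (CACGTG) in capitals. RRP9 is at chr3:51941855-51942154 on the minus strand and PNO1 at chr2:68157638-68157937 on the plus strand.
RRP9: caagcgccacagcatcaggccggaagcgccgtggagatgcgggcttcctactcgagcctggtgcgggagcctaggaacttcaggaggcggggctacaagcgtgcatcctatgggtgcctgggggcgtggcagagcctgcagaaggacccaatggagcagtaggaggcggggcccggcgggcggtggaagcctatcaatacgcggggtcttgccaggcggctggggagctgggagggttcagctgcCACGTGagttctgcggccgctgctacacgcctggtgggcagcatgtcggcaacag
PNO1: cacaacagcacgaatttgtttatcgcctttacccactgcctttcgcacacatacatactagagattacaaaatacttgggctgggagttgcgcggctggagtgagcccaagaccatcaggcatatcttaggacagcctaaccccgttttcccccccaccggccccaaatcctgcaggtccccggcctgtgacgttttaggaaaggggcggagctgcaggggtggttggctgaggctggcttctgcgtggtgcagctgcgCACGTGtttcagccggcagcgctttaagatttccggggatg
The E-box begins 5 bases before the start in RRP9 and 9 bases after it in PNO1. Of the 40 factors 34 matched a promoter (85%), and 13 of these held an E-box (38.2%), against 7.44% of the 27305 promoters. Among the genes called lower, 1664 of 2044 matched (81.4%), and 12.98% of these held an E-box. Of the 12996 tested genes 10249 matched (78.86%), and 10.36% of these held one, so the expressed genes stood above the whole table before any call was made. The E-box was not the only motif with a larger share among genes called lower. Another motif searched, the ETS site (CCGGAAGT), was in 12.56% of the matched genes called lower and 8.87% of the matched tested genes. Of the 34 matched factors 8.82% held it. These shares are descriptions of the letters in the windows.

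Much of the machinery of transcription and translation was lower too. Of 30 subunits of RNA polymerases I to III 21 fell (70%) and 1 rose (3.33%), against 15.7% and 14.9% of all tested genes, with a median of -0.64. CD3EAP, a polymerase I subunit, had 8.53 and 10.3 FPKM in normal growth and 3.41 and 1.82 after serum (log2 fold change -1.56 ± 0.22, adjusted p = 8.42e-04), and POLR3G and POLR3GL, alternative subunits of polymerase III, went in opposite directions. POLR3G had 28.1 and 31.5 FPKM in normal growth and 17.2 and 10.1 after serum (log2 fold change -1.11 ± 0.20, adjusted p = 0.00282) and POLR3GL had 7.92 and 9.56 FPKM in normal growth and 17.6 and 20.6 after serum (log2 fold change 1.05 ± 0.18, adjusted p = 0.0022). POLR2A, the largest subunit of polymerase II, had 506 and 497 FPKM in normal growth and 277 and 296 after serum (log2 fold change -0.81 ± 0.07, adjusted p = 8.39e-05).

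Of 42 translation initiation and elongation factors 27 fell (64.3%) and 2 rose (4.76%), against 15.7% and 14.9% of all tested genes, with a median of -0.37. Of 37 aminoacyl-tRNA synthetases 19 fell and 1 rose, with 11 falls without GFP normal replicate 1 and 12 without GFP normal replicate 2 or GFP serum replicate 2. EIF3J, an initiation factor subunit, had 99.2 and 92.3 FPKM in normal growth and 52.5 and 46.7 after serum (log2 fold change -0.94 ± 0.10, adjusted p = 2.03e-04). FARSA, which charges tRNA with phenylalanine, had 57.2 and 64.99 FPKM in normal growth and 28.9 and 28.3 after serum (log2 fold change -1.07 ± 0.11, adjusted p = 1.67e-04). EIF4B, a cofactor of the initiation helicase, rose (log2 fold change 0.51 ± 0.08, adjusted p = 0.00172). Cytosolic ribosomal proteins stayed near 0 as a list. Of 83 tested genes 1 rose and 5 fell, with a median of -0.01, and 3 of those that fell were the divergent relatives RPL26L1, RPL7L1 and RPL22L1 (log2 fold changes -1.19 ± 0.10, -0.71 ± 0.09 and -0.70 ± 0.13). Under quantile normalization 13 rose and 9 fell. Without GFP serum replicate 1, 6 rose, with any other library left out 0 rose, and without GFP normal replicate 2, 3 fell.

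Of 29 genes of nucleotide and polyamine synthesis 18 fell (62.1%, against 15.7% of all tested genes) and 0 rose, with a median of -0.50. ODC1, the rate-limiting enzyme of polyamine synthesis, had 369 and 357 FPKM in normal growth and 175 and 133 after serum (log2 fold change -1.24 ± 0.11, adjusted p = 8.63e-05). SRM, which makes spermidine, had 146 and 154 FPKM in normal growth and 85.02 and 58.7 after serum (log2 fold change -1.07 ± 0.14, adjusted p = 6.60e-04). CTPS1, which makes CTP, had 237 and 199.5 FPKM in normal growth and 103 and 76.7 after serum (log2 fold change -1.28 ± 0.13, adjusted p = 1.66e-04). Serum libraries lay below normal ones in all 3 genes, as in every gene called lower.

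Most chaperones tested outside the endoplasmic reticulum fell. Of 23 heat shock genes 16 fell and 2 rose, with a median of -0.58, and of the 14 subunits and partners of the TRiC chaperonin 13 fell and 0 rose. HSP90AB1, the constitutive cytosolic HSP90, had 1371 and 1399 FPKM in normal growth and 894 and 817 after serum (log2 fold change -0.70 ± 0.07, adjusted p = 1.67e-04). HSPD1, the mitochondrial chaperonin, had 519 and 505 FPKM in normal growth and 283 and 225 after serum (log2 fold change -1.02 ± 0.10, adjusted p = 1.20e-04). All serum libraries of these genes lay below all normal ones, as in every gene called lower. PFDN2, a prefoldin that hands actin and tubulin to TRiC, had 249.6 and 245 FPKM in normal growth and 133 and 112 after serum (log2 fold change -1.01 ± 0.10, adjusted p = 1.09e-04). CRYAB, a small heat shock protein, was one of the 2 that rose, with 25.2 and 29.3 FPKM in normal growth and 50.7 and 84.4 after serum (log2 fold change 1.24 ± 0.22, adjusted p = 0.00266). Of 20 chaperones of the endoplasmic reticulum 1 rose and 4 fell (20%, against 15.7% of all tested genes), and 1 fell without GFP normal replicate 2 or GFP serum replicate 2 and 2 without GFP normal replicate 1.

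Of 24 genes of the ATF4 and amino acid stress response 11 fell (45.8%) and 3 rose (12.5%), with a median of -0.38. Over all tested genes 15.7% fell and 14.9% rose, so the share that rose lay near that of all genes. SLC7A5, a transporter of large neutral amino acids, had 291 and 314 FPKM in normal growth and 163 and 144 after serum (log2 fold change -0.98 ± 0.09, adjusted p = 8.14e-05). DDIT4, an inhibitor of mTOR complex 1, rose, with 23.4 and 25.4 FPKM in normal growth and 48.97 and 94.4 after serum (log2 fold change 1.44 ± 0.23, adjusted p = 0.00159). Of 46 proteasome genes 21 fell and 2 rose, with 12 falls without GFP normal replicate 1 or 2. PSMD2, a regulatory subunit, had 887 and 898 FPKM in normal growth and 561 and 475 after serum (log2 fold change -0.79 ± 0.09, adjusted p = 2.71e-04). PSMB9, an immunoproteasome subunit, had 1.42 and 1.72 FPKM in normal growth and 4.82 and 4.78 after serum (log2 fold change 1.18 ± 0.18, adjusted p = 0.00121). Of 5 metallothionein and zinc genes 4 fell and 0 rose, with MT2A at 1016 and 1001 FPKM in normal growth and 749.5 and 569 after serum (log2 fold change -0.63 ± 0.11, adjusted p = 0.00288).

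Of 75 mitochondrial ribosomal proteins 38 fell (50.7%) and 2 rose, with a median of -0.35. Of 78 nuclear genes of oxidative phosphorylation 13 fell (16.7%) and 1 rose, with a median of -0.03, and this share was near the 15.7% of all tested genes that fell. With GFP normal replicate 1 or 2 left out the 38 falls were 22 and 23, and the 13 were 4 and 2. Without GFP serum replicate 1, 8 of the 78 fell and 8 rose. MRPL3, of the large subunit, had 137 and 134 FPKM in normal growth and 88.7 and 61.6 after serum (log2 fold change -0.87 ± 0.14, adjusted p = 0.00168). SDHB, of complex II, had 119.9 and 114 FPKM in normal growth and 83.2 and 89.9 after serum (log2 fold change -0.43 ± 0.08, adjusted p = 0.00342). Of 31 genes of glycolysis and hypoxia 14 fell and 5 rose, with 5 falls and 2 rises without GFP normal replicate 1 and 6 falls without GFP normal replicate 2. With all libraries 45.2% of these 31 genes fell and 16.1% rose, the latter near the 14.9% of all tested genes that rose. LDHA, lactate dehydrogenase, had 1096 and 1127 FPKM in normal growth and 769.99 and 839 after serum (log2 fold change -0.47 ± 0.08, adjusted p = 0.00196). The glucose transporter SLC2A3 had 12.04 and 14.9 FPKM in normal growth and 29.6 and 59.3 after serum (log2 fold change 1.57 ± 0.28, adjusted p = 0.00268).

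Of 38 genes of DNA replication and G1/S 12 fell (31.6%) and 1 rose (2.63%), with a median of -0.23. Of 32 genes of mitosis and G2/M 10 fell (31.25%) and 0 rose, with a median of -0.10. Over all tested genes 15.7% fell and 14.9% rose. CDC25A, a phosphatase that activates cyclin-dependent kinases, had 25.4 and 24.7 FPKM in normal growth and 16.1 and 10.7 after serum (log2 fold change -0.88 ± 0.16, adjusted p = 0.00304). PLK1, a mitotic kinase, had 77.2 and 78.5 FPKM in normal growth and 44.6 and 52.3 after serum (log2 fold change -0.68 ± 0.10, adjusted p = 9.96e-04). CCND1, the cyclin D1 gene that growth factors are known to induce, had 92.4 and 109 FPKM in normal growth and 114 and 108 after serum without being called (log2 fold change 0.14 ± 0.09, adjusted p = 0.274). The G1/S falls became 4 when GFP normal replicate 2 was left out and 7 when GFP serum replicate 2 was. The G2/M falls became 5, 4 and 6 when GFP normal replicate 1, GFP normal replicate 2 or GFP serum replicate 1 was left out. Without that last library 5 genes of G2/M rose. In bulk RNA, a change in the share of cells in a phase and a change per cell cannot be told apart.

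The share of genes called lower was larger in classes of higher expression. Of 3583 tested genes with a mean below 5 FPKM over the GFP libraries, 3.35% were called lower, against 10.9% of 4599 genes from 5 to 20 FPKM, 27.5% of 3928 from 20 to 100 and 38.5% of 886 at 100 or more. The shares called higher were 13.6%, 17.0%, 14.7% and 10.5%. The median log2 fold change of all tested genes in these classes was 0.17, 0.04, -0.11 and -0.16, in the same order. Among the genes that gained most FPKM, TMSB4X, the actin-sequestering peptide thymosin beta-4 (chromosome X, 12993227 to 12995346 in hg19), had 245 and 279 FPKM in normal growth and 831 and 1193 after serum (log2 fold change 1.92 ± 0.15, adjusted p = 4.16e-05), a gain of 749.6 FPKM between the group means, and CTGF gained 331 FPKM. The next in size after TMSB4X were LGALS1, FTH1 and ANXA2, with small log2 fold changes of 0.35 ± 0.09, 0.29 ± 0.08 and 0.29 ± 0.08, whose adjusted p were 0.175, 0.0887 and 0.116 without GFP normal replicate 1. LGALS1 (galectin-1) and ANXA2 (annexin A2) also missed the threshold without GFP serum replicate 2 (0.0989 and 0.0699), and FTH1 (ferritin heavy chain) and ANXA2 without GFP normal replicate 2 (0.0816 and 0.0569).

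**Figure D4:**
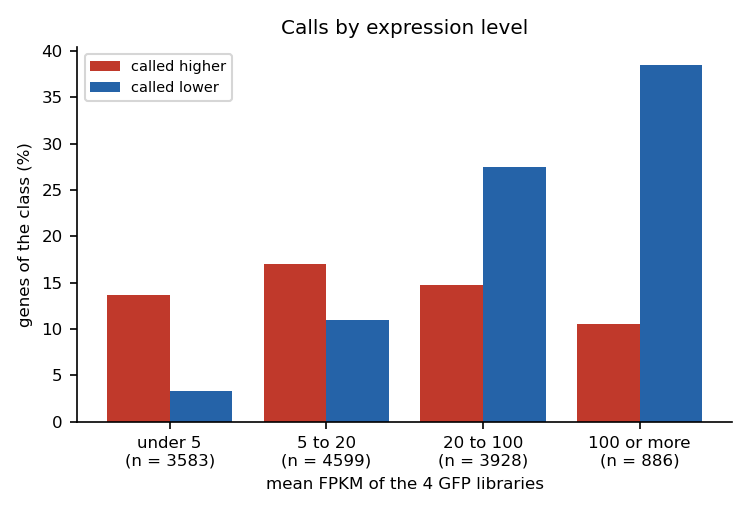
Percent of tested genes called higher (red) and called lower (blue) after serum, in 4 classes of mean FPKM over the GFP libraries, with the number of genes in each class below the bars. The share called lower climbs from 3.35% to 38.5%, and the share called higher stays between 10.5% and 17.0%.

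A few genes separated the serum libraries from each other. Of the 186 genes over 2-fold apart between them, 146 lay farther from normal growth in replicate 2, and 51 were called. Over all tested genes, 8297 of 12996 lay farther in replicate 2, and 30.7% were called. CXCL14, a chemokine, had 0.204 and 0.173 FPKM in normal growth and 1.05 and 14.5 after serum (log2 fold change 2.25 ± 0.68, adjusted p = 0.032), and without serum replicate 2 its log2 fold change was 0.78 (adjusted p = 0.0780), while without GFP normal replicates 1 and 2 its adjusted p were 0.113 and 0.110. AGPAT9, an acyltransferase of glycerolipid synthesis, had 29.6 and 27.2 FPKM in normal growth and 23.1 and 7.496 after serum (log2 fold change -1.04 ± 0.36, adjusted p = 0.0499), and without serum replicate 2 its value was -0.28 (adjusted p = 0.177), and without GFP normal replicates 1 and 2 its adjusted p were 0.177 and 0.126. LYSMD3 had 8.199 and 8.43 FPKM in normal growth and 13.4 and 4.38 after serum, on both sides of its normal libraries, without being called (log2 fold change -0.08 ± 0.34, adjusted p = 0.877), although it was called lower without serum replicate 1 (-0.79) and higher without serum replicate 2 (0.62). The order of the serum libraries thus differed from gene to gene. RC3H2, an RNA-binding ubiquitin ligase, had 10.5 and 9.06 FPKM in normal growth and 9.097 and 47.7 after serum (log2 fold change 1.04 ± 0.53, adjusted p = 0.161) and stood apart in serum replicate 2 alone.

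The ID genes, which inhibit basic helix-loop-helix factors and are known targets of BMP, separated the libraries in the other direction. ID1 had 149.9 and 153 FPKM in normal growth and 74.7 and 158 after serum without being called (log2 fold change -0.48 ± 0.26, adjusted p = 0.19). ID3 had 70.8 and 74.2 FPKM in normal growth and 25.7 and 61.5 after serum and was called lower (log2 fold change -0.85 ± 0.29, adjusted p = 0.0484). In both genes serum replicate 1 was low and replicate 2 near normal growth, and without serum replicate 1 the log2 fold changes were 0.06 and -0.23 (adjusted p = 0.709 and 0.110). Without serum replicate 2 they were -1.01 and -1.46 (adjusted p = 5.29e-04 and 5.10e-05), so that ID1 was then called lower. Without GFP normal replicates 1 and 2, ID3 had adjusted p of 0.139 and 0.154. SRXN1, an antioxidant enzyme of the NRF2 response, had 101 and 101 FPKM in normal growth and 76.5 and 33.2 after serum (log2 fold change -0.98 ± 0.27, adjusted p = 0.0222), with -0.39 without serum replicate 2 and -1.57 without serum replicate 1, and with adjusted p of 0.0906 and 0.0844 without GFP normal replicates 1 and 2.

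Some single values were not usable as levels. In 11 tested genes 1 library of a GFP pair was under 0.01 FPKM and the other at least 10, and 0 of the 11 were called. Only 2 of them spanned at least 200 bases. FLNA, the filamin A gene, was listed at 413 and 0 FPKM in normal growth whereas after serum it was at 456 and 451. PA2G4 was listed at 17.6 and 0.00161 FPKM in normal growth whereas after serum it was at 13.99 and 4.54. FLNA belongs to the cytoskeletal list, where it gave the highest value, 4.48, without being called (adjusted p = 0.248).

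The G13R libraries, which share no sample with the GFP ones, gave a second measurement of the same genes in cells that overexpress the actin mutant. Of the 523 genes that rose at least 2-fold in GFP cells, 506 were above 0 in G13R cells and 297 were called higher there, where 8.26% of all tested genes were called higher. Their median log2 fold change was 1.31 in GFP cells, which had chosen them, and 0.84 in G13R cells. Of the 165 that fell at least 2-fold, 152 were below 0 and 81 were called lower, against 4.62% of all tested genes, with medians of -1.16 and -0.59. GFP and G13R calls were not independent, because 1 estimate of each gene's spread, from all 8 libraries, served both. A gene called in GFP cells had thus passed with the spread that its G13R call also used. The difference between the responses, tested as an interaction in limma, passed for 0 genes, with 1533 at an unadjusted p below 0.05 and a smallest adjusted p of 0.259.

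On the log2 scale EGR1 rose by 3.51 ± 0.16 in GFP cells and by 3.08 ± 0.16 in G13R cells, and SDPR by 2.99 ± 0.21 and 2.98 ± 0.21. The log2 fold change of FOSB was 3.34 ± 0.32 in GFP cells and 0.68 ± 0.32 in G13R cells (adjusted p of the difference 0.259), and that of DUSP1 3.07 ± 0.29 and 1.27 ± 0.29 (adjusted p of the difference 0.261). Among falling genes, MMP3 had log2 fold changes of -2.66 ± 0.21 and -2.39 ± 0.21, and PTX3 of -1.62 ± 0.19 and 0.0010 ± 0.19 (adjusted p of the difference 0.259). The sterol list had 21 of 23 genes higher in GFP and 22 in G13R cells, with medians of 1.30 and 0.81, and the ribosome biogenesis list had 40 and 20 of 40 lower, with medians of -0.96 and -0.46. No single gene's difference between the cells was called.

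**Figure D5:**
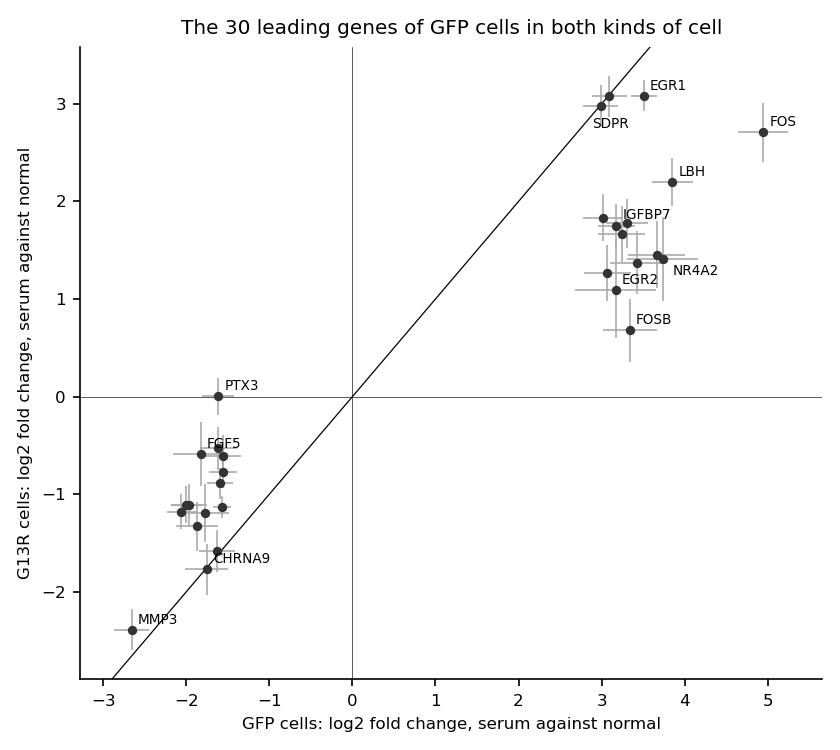
Log2 fold change on serum in GFP cells (x axis) and G13R cells (y axis) for the 30 leading genes of GFP cells, with bars of 1 SE each way and a diagonal that marks equal change. The 30 genes were chosen in GFP cells; 15 of 15 that rose lie above 0 in G13R cells, and PTX3 lies at 0.0010.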

How the data were processed

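The authors deposited FPKM values per gene for 8 libraries, made with TopHat2 2.0.13 and Cufflinks 2.2.1, per the submitters' processing notes. The labels list both hg19 and BDGP5 as genome builds, and hg19 was taken as the build for this human line. The FPKM table holds no counts, and no whole reads could be recovered from it, so count models were not used and intervals for depth are not given. Starts in the table count from 0, judged by coding spans of single-exon genes, so 1 was added. FPKM + 1 was log2 transformed without rescaling, genes that reached 1 FPKM in 2 or more libraries were kept, and limma 3.58.1 in R 4.3.3 was fitted to all 8 libraries by group with an intensity trend, which leaves 4 residual degrees of freedom. All 4 groups thus share 1 estimate of the spread. Genes with a Benjamini-Hochberg adjusted p below 0.05 were called, and the adjustment ran over all 12996 genes. The code was tested on simulated data. Fold changes on this scale understate the change of low genes. The 42 gene lists and their members, like the comparison itself, were chosen with earlier results of these data known. Some genes belong to more than 1 list, such as BTG2 (mRNA decay and p53), DUSP1 (ERK feedback and glucocorticoid) and PER1 (glucocorticoid and clock), so the lists are not separate. Named genes were up to 15 leading called genes each way, with a mean of at least 2 FPKM and no overlap between groups. Added to these were up to 4 called members each way per list and up to 6 with the largest gain or loss of FPKM. Up to 6 each way that separated the serum libraries and a fixed set of textbook genes were also named. Symbols of unnamed transcripts and symbols that a spreadsheet turned into dates were skipped, except in the lists and the fixed set. A choice of the 288 named genes is printed. Alternatives covered the pseudocount, the filter, 2 scalings, the libraries fitted, the trend, the replicate block and each library left out. Promoters were matched by symbol to RefSeq (GRCh38.p14), and coordinates were not converted between builds. GFP itself was not analysed here, and the labels do not say which actin gene carries G13R. Some named genes are not reported here.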

Additional observations from a re-analysis of the deposited data

How the results depend on the processing

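None of the 3985 called genes changed sign under the alternatives run. No called gene had overlapping GFP libraries, so only the 2 scalings could have turned a sign. The other alternatives could not have done so. With 1 GFP library left out, calls ranged from 2146 to 4288, genes called higher from 1017 to 2164, genes called lower from 1129 to 2124, genes higher at least 2-fold from 398 to 791 and genes lower at least 2-fold from 91 to 348. The lone sample of a group is then assumed to vary like the other groups. Without a filter 3205 genes were called, 2967 of them among the 3985, and with quantile normalization 3655, of which 3164 were. A fit to the 4 GFP libraries alone called 2930. With a pseudocount of 0.1, 270 genes were called lower at least 2-fold, 870 and 258 genes stood at least 2-fold above and below normal growth in serum replicate 1, and 1339 and 643 in serum replicate 2. With the 5 FPKM filter 535 stood above in serum replicate 2. The difference between G13R and GFP cells was called for 1 gene with a pseudocount of 0.1 and for 2 with quantile normalization. With the replicate number as a block 4109 genes were called, 3855 of them among the 3985, and deviations of same-numbered GFP libraries correlated at r = 0.121 over 12996 genes, from 1 pair of numbers only. With 1 library left out no called gene could turn sign, because its groups did not overlap. The sign did turn in 13 named genes, among them LYSMD3 (-0.79 to 0.62), ID1 (-1.01 to 0.06), GLUL (lowest -0.50) and RC3H2 (lowest -0.09), and 0 of the 13 were called with all libraries. It also turned in the medians of 8 lists: collagens (-0.02 with all libraries, then 0.078 to 0.21), TGF-beta and BMP targets (-0.074 to 0.18), endoplasmic reticulum chaperones (-0.13 to 0.073), AhR and NRF2 targets (-0.49 to 0.10), cytokines (-0.22 to 0.01), clustered histones (-0.04 to 0.14), cytosolic ribosomal proteins (-0.09 to 0.07) and oxidative phosphorylation (-0.13 to 0.01). Of 265 named genes called, 193 kept the call in all 12 settings. The smallest counts, of 1 or 2 members of a list called one way, often went to 0 with a library left out. The cause of these shifts was not tested. Count models, shares of motifs over genes called at least 2-fold (too few matched) and a fit of the difference without G13R libraries were not run. The unknown depth limits what can be said of low genes.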

Other observations

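Of 19 TGF-beta and BMP targets 6 rose (31.6%) and 3 fell (15.8%), with a median of -0.04, where 14.9% of all tested genes rose and 15.7% fell. PMEPA1, a feedback inhibitor of TGF-beta signalling, had 47.2 and 48.9 FPKM in normal growth and 81.6 and 100.3 after serum (log2 fold change 0.90 ± 0.12, adjusted p = 6.61e-04 in limma), while TGFBI, a secreted matrix protein induced by TGF-beta, had 28.3 and 29.4 FPKM in normal growth and 14.3 and 17.3 after serum (log2 fold change -0.84 ± 0.13, adjusted p = 0.00128). The serum libraries lay above the normal ones in PMEPA1 and below them in TGFBI. The 3 falls were 1 without GFP normal replicate 1, GFP normal replicate 2 or GFP serum replicate 1, and 6 with GFP serum replicate 2 left out. Of 14 AhR and NRF2 targets 3 rose (21.4%) and 2 fell (14.3%), which is near those shares, and the median was 0.10 in serum replicate 1 and -0.49 in serum replicate 2. Without GFP serum replicate 1, 8 of these 14 fell, and without GFP normal replicate 1, 0 were called either way.

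Of 33 clustered histone genes 6 rose (18.2%, against 14.9% of all tested genes) and 0 fell, with 1 rise without GFP normal replicate 1 or GFP serum replicate 2 and 3 without GFP normal replicate 2. Histone messages mostly lack a poly(A) tail, and the libraries were made from poly(A) RNA. Of 401 genes with a ZNF symbol, which mostly encode C2H2 zinc finger proteins, 26 rose (6.48%) and 33 fell (8.23%), against 14.9% and 15.7% of all tested genes called higher and lower. ZNF608 had 5.43 and 4.88 FPKM in normal growth and 13.8 and 25.7 after serum (log2 fold change 1.69 ± 0.24, adjusted p = 8.62e-04). ZNF404 had 13.3 and 10.1 FPKM in normal growth and 5.09 and 3.99 after serum (log2 fold change -1.19 ± 0.18, adjusted p = 0.00134). The ZNF rises were 11, 12 and 10 without GFP normal replicate 1, GFP normal replicate 2 and GFP serum replicate 2, and the falls 11, 18 and 22. Neural markers summed to between 19.7 and 26.6 FPKM in the GFP libraries, with 3 of 5 reaching 1 FPKM.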
